A study of Mus musculus with 12 samples.

Results

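A list of 38 genes of glucose breakdown and of the response to low oxygen was followed in mouse follicular B cells that carry or lack GPR174, a receptor for lysophosphatidylserine. A gene was a member if its symbol stood on the list and had a row in the tables of both time points, which held for 36 of the 38. The whole series had 12837 genes in both tables, 13269 in the 0 h table and 13142 in the 4 h table. *Pkm*, which encodes pyruvate kinase, was read from the row under its older symbol *Pkm2*. *Eno1*, which encodes enolase, had no row of that symbol and was not analysed here. *Egln3*, a HIF prolyl hydroxylase, had a row at 4 h only, with counts of 2, 4 and 3 in WT and 0, 1 and 2 in KO, and was not tested. The 36 members comprised 14 glycolytic enzymes, 6 genes of transport and of the pyruvate gate, 4 pentose phosphate enzymes and 12 hypoxia response genes.

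RNA sequencing was done on splenic follicular B cells (CD23+, CD21/35-) sorted from male mice, with 3 libraries in each of 4 groups. WT cells were Gpr174+/Y, and KO cells were Gpr174-/Y, in which tdTomato stands in place of the only coding exon in every cell of the animal. Cells were either frozen directly after the sort (0 h) or kept for 4 h in complete RPMI medium with no added stimulus. Each genotype was represented by 3 mice. The labels did not say whether a mouse gave cells to both times. The mice were adults.

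Glycolysis splits glucose into pyruvate in the cytosol, and lactate dehydrogenase turns pyruvate into lactate, which restores the NAD+ that the pathway uses. The pentose phosphate pathway branches off at glucose 6-phosphate and supplies NADPH and ribose. When oxygen is plentiful, prolyl hydroxylases of the EGLN family mark HIF-1α for destruction; when it is short, HIF-1α pairs with ARNT and binds DNA at a core of ACGTG, which raises many glycolytic genes. Resting B cells take up little glucose, and activated B cells raise both uptake and breakdown.

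The shallowest library, WT 4 h replicate 2, held 6098941 counts, and the deepest, WT 0 h replicate 3, held 11618787. WT 4 h replicate 1 stood apart from the other 4 h libraries: reads of *Rn45s*, a ribosomal RNA precursor, took 11.2% of its counts against 6.65% to 8.29% in the other 5, and 9.23% to 11.3% at 0 h, and it differed more from the other WT 4 h libraries (chi-square per degree of freedom 9.88 and 8.24) than they did from each other (4.09). The *Gpr174* row was 2.02-fold higher in WT than in KO at 0 h (log2 difference 1.02 ± 0.06 SE, edgeR adjusted p = 2.3e-07) and 1.47-fold higher at 4 h (0.56 ± 0.07 SE, edgeR adjusted p = 4.21e-05). It did not fall to 0 in KO, and the row covers exons outside the replaced one. The 9 measured B cell markers summed to between 6235 and 10130 CPM (counts scaled to a common library total) in every library, against 24.69 to 52.61 CPM for 16 T and NK cell markers and 74.02 to 229.6 CPM for 14 macrophage, monocyte and neutrophil markers. A set of 30 proliferation genes summed to 882.5 to 1135 CPM in KO at 0 h and to 570.8 to 692.7 CPM in WT at 0 h. In bulk RNA, fewer cells of a kind and less RNA per cell cannot be told apart.

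The level of members was compared between genes per kb of annotated exon. In WT at 0 h, *Aldoa*, which encodes the aldolase that splits fructose 1,6-bisphosphate, stood first with 46.4 ± 1.73 CPM per kb (SD, n = 3). The pentose phosphate enzyme gene *Taldo1* (36.5 ± 3.30), *Ldha* of lactate dehydrogenase (35.3 ± 2.29) and the stress gene *Ddit4* (33.2 ± 2.85) came next, and these 3 neighbours did not differ beyond their spread. The glucose transporter gene *Slc2a1* followed with 25.6 ± 3.17 CPM per kb. At the other end stood the lactate exporter gene *Slc16a3* (0.243 ± 0.038) and the growth factor gene *Vegfa* (0.103 ± 0.044).

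Glycolysis genes are known for pseudogene copies, and reads that fit several places may be lost or moved in counting, so the sequence that each member shares was measured. Of the 50-base words in annotated exons of *Pgk1* (phosphoglycerate kinase), 53.9% also stood in another annotated gene. The share was 50.9% for *Mif*, a cytokine gene, and 47.2% for *Bnip3*, whose product marks mitochondria for removal. It was 36.2% for *Pgam1* (phosphoglycerate mutase), 25.8% for *Pkm* and 25.1% for *Gapdh*, whose words recurred in 223 other genes. *Gapdh*, a gene used widely as an abundant reference, was counted at only 1.97 ± 0.29 CPM per kb in WT at 0 h (SD, n = 3). The levels of these genes are therefore uncertain. The length used also enters a level per kb. It merged the exons of all annotated transcripts, which gave 4133 bases for *Gapdh*, and a longer length lowers the value. Of the 36 members, 20 shared under 5% of their words, and *Ddit4*, *Slc2a6*, *Narf* and *Kdm3a* shared 0%.

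**Figure D1:**
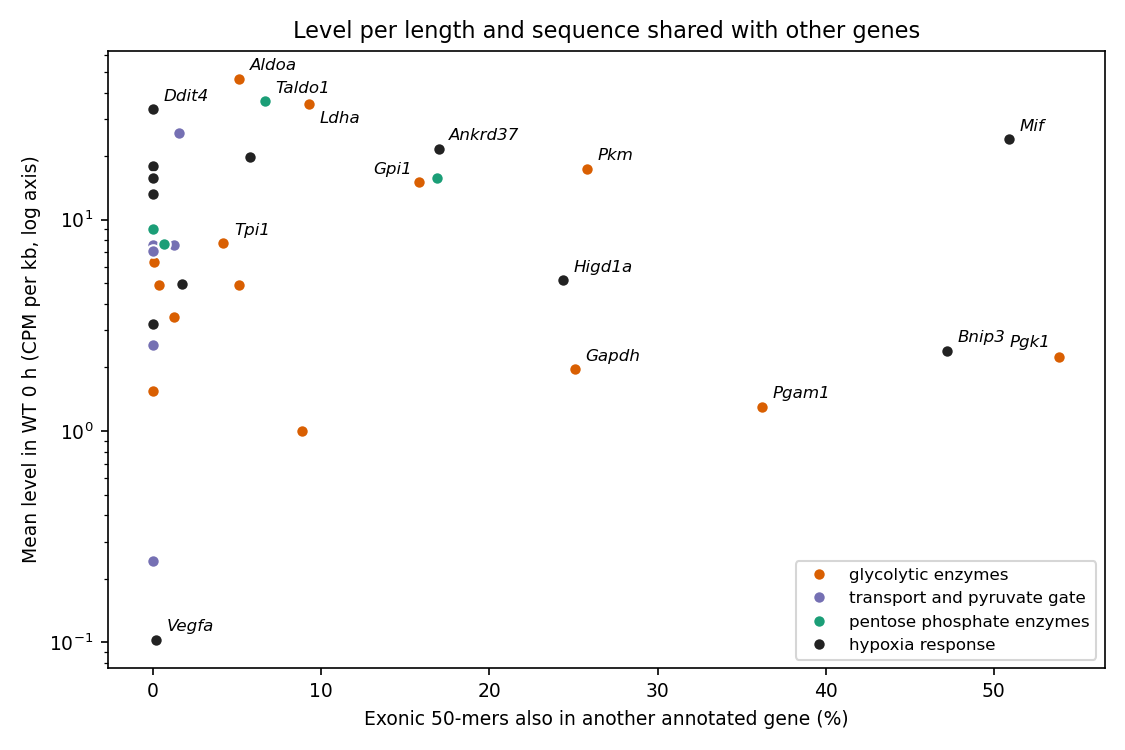
Each point is 1 of the 36 members. The x axis gives the percent of its exonic 50-base words that another annotated gene also holds, and the y axis its mean level in WT at 0 h in CPM per kb, on a log axis; *Pgk1* lies farthest right at 53.9%, and *Gapdh* lies at 25.1% with 1.97 CPM per kb.

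Promoters were read for the letters of the HIF core. The RefSeq table (GRCm38.p6) held 53 windows for 37 of the 38 listed genes, each from 250 bases before to 50 after a start. ACGTG stood on either strand in 28 of these 53 windows (52.8%), against 25.2% of 11478 windows of genes in both tables and 19.6% of all 32851 windows. The list was made of genes of a pathway known for this core, so the share describes how they were chosen. The E-box CACGTG, which holds ACGTG on both strands, stood in 11.3% of member windows and 9.91% of windows of genes in both tables. The cAMP response element TGACGTCA, known as the binding site of CREB, stood in 2 of the 53 member windows (3.77%), 1 each of *Ldha* and *Mif*, against 3.05% of windows of genes in both tables. A match is a stretch of letters, not a measured binding site.

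The upstream stretches of 4 members that the results turn on are shown 5′ to 3′ on the strand of the gene, in lower case with ACGTG on either strand, and TGACGTCA where it occurs, in capitals. *Ddit4* and *Ankrd37* fell most in culture, and *Hif1a* and *Ldha* were the members whose culture change differed by genotype. Bases that any annotated exon covers were left off. The *Ddit4* stretch is chr10:59951835-59952020 (minus strand, 186 bases, core at -187 from the start). The *Ankrd37* stretch is chr8:45999868-46000100 (minus strand, 233 bases, core at -241 from the start). The full *Ankrd37* window also held ACGTG at -6, among the bases left off. The *Hif1a* stretch is chr12:73907617-73907866 (plus strand, 250 bases). It holds 3 matches to the core over both strands, since its 1 CACGTG counts once on each strand. The *Ldha* stretch is chr7:46845554-46845803 (plus strand, 250 bases). It holds 5 matches over both strands, since its 2 CACGTG each count once on each strand. The TGACGTCA of *Ldha* begins at -12 from the start. The *Hif1a* and *Ldha* stretches lie in introns of longer annotated transcripts of the same genes.
Ddit4: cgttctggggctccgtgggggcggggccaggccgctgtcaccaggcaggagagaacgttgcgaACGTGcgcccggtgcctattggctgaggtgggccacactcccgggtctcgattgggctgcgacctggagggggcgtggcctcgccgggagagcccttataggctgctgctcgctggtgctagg
Ankrd37: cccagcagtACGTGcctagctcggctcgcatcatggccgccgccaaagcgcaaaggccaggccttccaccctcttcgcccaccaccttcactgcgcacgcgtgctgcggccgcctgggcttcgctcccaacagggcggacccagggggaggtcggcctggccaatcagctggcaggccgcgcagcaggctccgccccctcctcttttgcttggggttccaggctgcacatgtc
Hif1a: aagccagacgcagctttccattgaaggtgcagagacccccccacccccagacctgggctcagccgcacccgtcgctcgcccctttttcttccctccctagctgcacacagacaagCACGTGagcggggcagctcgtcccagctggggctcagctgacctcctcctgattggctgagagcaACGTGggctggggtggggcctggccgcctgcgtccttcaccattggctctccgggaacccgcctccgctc
Ldha: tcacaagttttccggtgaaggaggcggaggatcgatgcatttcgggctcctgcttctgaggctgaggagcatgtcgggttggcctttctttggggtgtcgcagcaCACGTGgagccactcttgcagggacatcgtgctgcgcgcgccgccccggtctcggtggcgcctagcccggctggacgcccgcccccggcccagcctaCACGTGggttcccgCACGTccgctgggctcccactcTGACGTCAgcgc
In the windows used here, *Slc2a6* and *Narf* held no ACGTG. Only these letters were searched for the HIF core, so a site of other letters would not be seen.

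The first comparison asked how the members stood in WT and KO cells directly after the sort. Of the 35 members tested at 0 h, 0 passed edgeR's quasi-likelihood test at an adjusted p under 0.05, where 0.987% of all 11345 genes tested did, 0.502% as higher in WT and 0.485% as higher in KO. DESeq2 called 0 as well, and 4 members had an unadjusted p under 0.05 in edgeR. The median log2 difference (WT over KO) over members was 0.03, against 0.00 over all genes tested. *Vegfa*, with counts of 2 to 6 per library at 0 h, was too low to be tested.

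*Ddit4* had the smallest p of these. It encodes REDD1, an inhibitor of mTORC1 that is induced by low oxygen, energy stress and glucocorticoids. Its level was 63.6, 53.7 and 57.7 CPM in WT and 40.6, 51.7 and 37.4 CPM in KO at 0 h, so every WT library lay above every KO library. The log2 difference was 0.43 ± 0.11 SE, with an unadjusted p of 0.0015 and an adjusted p of 0.085 in edgeR. The closest pair was WT replicate 2 and KO replicate 2, and without that KO library the adjusted p in edgeR was 0.016. The other 3 members were higher in KO: *Ldha* (log2 difference -0.17), the phosphofructokinase gene *Pfkp* (-0.21) and *Pgk1* (-0.53). Groups did not overlap for 3 of the 35 members, or 8.57%, against 18.1% of all genes tested. Proliferation genes, of which 9 of 30 were called as higher in KO at 0 h, moved with genotype here, and their part in these values was not tested.

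The next comparison asked what 4 h of culture did in cells with the receptor. In WT, 18 of 36 members (50%) passed the edgeR test, 11 raised and 7 lowered, where 33.1% of all 11572 genes tested were called, 15.1% raised and 18% lowered. In KO, 12 of 36 members (33.3%) passed, 5 raised and 7 lowered, where 23.3% of all genes were called, 10.3% raised and 13% lowered. The median absolute log2 change over members was 0.33 in WT and 0.21 in KO, beside 0.23 and 0.19 over all genes tested. The times did not overlap for 20 members in WT (55.6%, beside 40.9% of all genes) and 15 in KO (41.7%, beside 41.9%). *Vegfa* passed the filter on low counts only through its 4 h libraries, so its call as raised was favoured before the test; without it 17 of 35 members were called in WT (48.6%, 10 raised) and 11 of 35 in KO (31.4%, 4 raised). Without WT 4 h replicate 1, 14 members were called in WT, 7 raised and 7 lowered, beside 28.4% of all genes.

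Markers of cell types and states moved with culture as well. Of 9 B cell markers, 5 were lowered and 1 raised in WT and 6 lowered and 2 raised in KO. Of 14 macrophage, monocyte and neutrophil markers, 7 were lowered and 1 raised in WT and 8 lowered and 1 raised in KO. In WT culture 6 of 30 proliferation genes rose and 2 fell, and in KO culture 8 fell. In WT culture 3 of 5 plasma cell markers rose and 1 fell, and in KO culture 1 rose and 1 fell. Of 11 T and NK cell markers, 1 was lowered in WT, and of 6 erythroid and platelet markers, 1 was lowered in KO. Their part in the members' changes was not tested. Library totals in place of TMM scaling shifted the median change of all genes by about 0.11 in WT and gave 22 called members there, 16 raised and 6 lowered. The additional calls were *Hk1*, *Pkm*, *Slc16a1*, *Egln1* and *Tkt*, all raised, and *Slc2a3* lost its call. The share of all genes called with library totals is not given here. This count therefore does not set the members apart from other genes.

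The largest falls were those of 2 hypoxia response genes, *Ddit4* and *Ankrd37*. The largest fitted rise was that of *Vegfa*, which entered the test only through its 4 h libraries. Of the other members, the transporter gene *Slc2a6* rose most (log2 change 1.00 in WT, 0.51 in KO), ahead of *Bnip3* (0.62 and 0.36). In WT 8 of the 12 hypoxia response genes were called (66.7%, beside 33.1% of all genes tested), 5 raised and 3 lowered. In KO 5 were called (41.7%, beside 23.3%), 2 raised and 3 lowered. Both counts and shares include *Vegfa*, whose call as raised was favoured before the test. The lowered genes were *Ddit4*, *Ankrd37* and *Narf* in both genotypes. The histone demethylase gene *Kdm3a* was raised in both, *Vegfa* was called as raised in both from 2 to 6 counts at 0 h, and *Hif1a*, *Bnip3* and the oxidoreductase gene *Ero1l* were called as raised in WT.

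*Ddit4* was at 9.68, 6.57 and 7.59 CPM in WT after 4 h and at 7.77, 8.13 and 6.52 CPM in KO. All 6 libraries lay far below the lowest 0 h library, at 37.4 CPM, and WT and KO overlapped at 4 h. The level at 4 h was 0.136 of that at 0 h in WT (log2 change -2.88 ± 0.15 SE, edgeR adjusted p = 1.68e-12) and 0.174 of it in KO (-2.52 ± 0.15 SE, edgeR adjusted p = 7.99e-11). The change in WT minus that in KO was -0.36 ± 0.22 SE on the log2 scale, which did not pass the test (edgeR adjusted p = 0.449).

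*Ankrd37* encodes a small ankyrin repeat protein and is known as a HIF-1 target. It was at 36.4, 31.7 and 32.2 CPM in WT and 28.7, 32.4 and 30.6 CPM in KO at 0 h. After 4 h it was at 7.91, 8.60 and 6.01 CPM in WT and 9.88, 5.38 and 7.20 CPM in KO. The times did not overlap, and the genotypes overlapped at both times. The log2 change was -2.18 ± 0.17 SE in WT (edgeR adjusted p = 1.44e-09) and -2.03 ± 0.17 SE in KO (edgeR adjusted p = 1.12e-08). The gene shares 17% of its exonic 50-base words with 2 other annotated genes.

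*Narf*, which encodes a nuclear protein that binds prelamin A, was at 78.2, 90.1 and 89.7 CPM in WT and 80.1, 67.6 and 90.7 CPM in KO at 0 h. At 4 h it was at 44.2, 45.0 and 49.9 CPM in WT and 56.4, 49.2 and 50.7 CPM in KO. Every 4 h library lay below every 0 h library. The log2 change was -0.89 ± 0.10 SE in WT (edgeR adjusted p = 2.91e-07) and -0.61 ± 0.10 SE in KO (edgeR adjusted p = 7.06e-05), and their difference, -0.27 ± 0.14 SE, did not pass (edgeR adjusted p = 0.317).

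*Vegfa*, which encodes a growth factor for blood vessels, was near 0 at 0 h. It was at 0.563, 0.224 and 0.536 CPM in WT and 0.253, 0.296 and 0.826 CPM in KO at 0 h, on 2 to 6 counts per library. After 4 h it was at 5.002, 4.54 and 6.96 CPM in WT and 3.56, 3.83 and 4.08 CPM in KO, on 27 to 66 counts. All 4 h libraries lay above all 0 h libraries. The fitted log2 change was 3.59 ± 0.41 SE in WT and 3.02 ± 0.45 SE in KO. It is given as a description, since the gene entered the test only through the 4 h libraries and the size of the change rests on very few counts at 0 h. Each WT library at 4 h also lay above each KO library, but the log2 difference of 0.55 ± 0.25 SE did not pass (edgeR adjusted p = 0.211).

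The other raised hypoxia genes moved less. *Kdm3a* rose by 0.17 ± 0.06 SE in WT and by 0.23 ± 0.06 SE in KO on the log2 scale (edgeR adjusted p = 0.0367 and 0.00925). *Ero1l*, of disulfide bond formation, rose by 0.34 ± 0.11 SE in WT (edgeR adjusted p = 0.0255). *Bnip3* rose by 0.62 ± 0.24 SE in WT with an edgeR adjusted p of 0.0481, and its WT libraries overlapped between times. The *Bnip3* call was lost without any 1 of 10 libraries (each except WT 0 h replicate 1 and WT 4 h replicate 2; edgeR adjusted p = 0.0558 to 0.233), with DESeq2 (adjusted p = 0.0668) and with only the compared groups in the fit (edgeR adjusted p = 0.112). The *Kdm3a* call in WT was lost without any WT 0 h library, KO 0 h replicate 1 or WT 4 h replicates 1 or 2 (0.0543 to 0.134) and with only the compared groups in the fit (0.0817), and in KO without KO 0 h replicate 2 (0.0557). The *Ero1l* call was lost without replicates 2 or 3 of WT at either time (edgeR adjusted p = 0.0556 to 0.121). *Egln1*, the main HIF prolyl hydroxylase, *Mif*, *P4ha1* of collagen hydroxylation and *Higd1a* of the mitochondrial inner membrane were not called in either genotype, with log2 changes from -0.31 to 0.22.

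**Figure D2:**
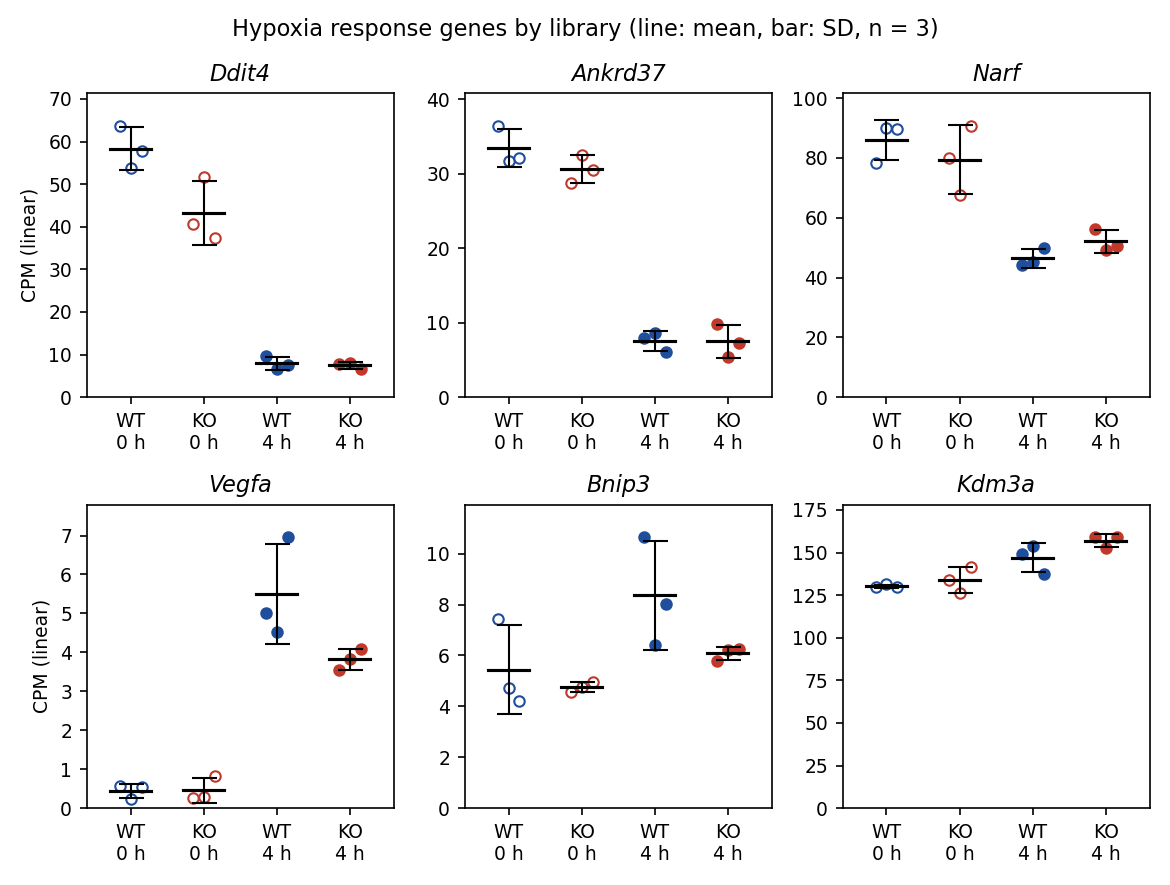
Level in CPM on a linear axis of 6 hypoxia response genes in the 12 libraries (open, 0 h; filled, 4 h; blue, WT; red, KO; line and bar, mean and SD of 3). *Ddit4*, *Ankrd37* and *Narf* at 4 h lie below every 0 h library, and *Vegfa* at 4 h lies above every 0 h library.

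Among the 14 glycolytic enzymes, 5 were called in WT culture (35.7%, beside 33.1% of all genes tested), 3 raised and 2 lowered. In KO culture 4 were called (28.6%, beside 23.3% of all genes tested), 2 raised and 2 lowered. Both shares were close to those of all genes. *Aldoa* rose by 0.41 ± 0.07 SE in WT and 0.30 ± 0.08 SE in KO on the log2 scale (edgeR adjusted p = 0.000227 and 0.00531). *Pfkl*, of the committing phosphofructokinase step, rose by 0.36 ± 0.08 SE and 0.31 ± 0.09 SE (edgeR adjusted p = 0.00196 and 0.012); the KO call was lost without KO 0 h replicates 1 or 2 or KO 4 h replicate 2 (edgeR adjusted p = 0.056 to 0.0605). *Pfkfb3*, whose product makes the activator fructose 2,6-bisphosphate, fell in both genotypes, to 0.730 of its 0 h level in WT and 0.697 in KO (edgeR adjusted p = 0.00272 and 0.00128). *Ldha* was called as raised in WT.

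*Gapdh*, of the NADH-making step, was at 9.46, 7.17 and 7.77 CPM in WT and 7.46, 8.15 and 7.29 CPM in KO at 0 h. At 4 h it was at 4.68, 5.01 and 4.64 CPM in WT and 5.01, 5.38 and 3.94 CPM in KO, on 29 to 45 counts. The times did not overlap. The level fell to 0.587 of its 0 h value in WT and 0.629 in KO (log2 change -0.77 ± 0.21 SE and -0.67 ± 0.21 SE, edgeR adjusted p = 0.00637 and 0.0242). The KO call was lost without KO 0 h replicates 1 or 2 or KO 4 h replicates 1 or 3 (edgeR adjusted p = 0.0523 to 0.106). With 25.1% of its words in other genes, this row may not hold all of its transcripts.

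The 9 enzymes not called in WT were the hexokinases *Hk1* and *Hk2*, *Gpi1*, *Pfkp*, *Pfkm*, *Tpi1*, *Pgk1*, *Pgam1* and *Pkm*, and the same 9 with *Ldha* were not called in KO. The summed level of the 14 enzymes was 697.4 ± 20.5 CPM (SD, n = 3) in WT and 715.3 ± 41.9 in KO at 0 h. At 4 h it was 782.3 ± 64.0 CPM in WT, from 713.5 to 839.9, and 725.5 ± 14.6 in KO, from 710.3 to 739.4. The highest sum at 4 h was that of WT replicate 1, which also had the highest *Aldoa*, *G6pdx* and *Tkt* levels, and without it the WT mean was 751.9 CPM. The groups overlapped at 4 h, and the sum is given without a test.

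Glucose transporters moved apart from each other. *Slc2a1* (GLUT1) fell to 0.801 of its 0 h level in WT and 0.741 in KO (edgeR adjusted p = 0.00461 and 0.000615). *Slc2a3* (GLUT3) fell to 0.795 and 0.710 (edgeR adjusted p = 0.0133 and 0.001), and its WT call was lost with library totals (0.0764) and without WT 0 h replicate 1 or WT 4 h replicate 3 (edgeR adjusted p = 0.101 and 0.0562). *Slc2a6* (GLUT6), a transporter of lysosomal membranes, rose in both genotypes. The lactate carriers *Slc16a1* and *Slc16a3* and *Pdk1*, a kinase that shuts pyruvate dehydrogenase, were not called in either genotype.

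*Slc2a6* was at 25.9, 23.0 and 24.3 CPM in WT and 20.4, 21.3 and 23.5 CPM in KO at 0 h. After 4 h it was at 46.0, 51.3 and 49.2 CPM in WT and 34.9, 30.0 and 27.9 CPM in KO. All 4 h libraries lay above all 0 h libraries, and at 4 h every WT library lay above every KO library. The rise was 2.00-fold in WT (2 SE either side, 1.74 to 2.31; edgeR adjusted p = 1.07e-07) and 1.42-fold in KO (1.22 to 1.66; edgeR adjusted p = 0.00161). The difference of these changes was 0.49 ± 0.15 SE on the log2 scale and did not pass (edgeR adjusted p = 0.0565), except without WT 0 h replicate 1 (edgeR adjusted p = 0.0462) or KO 4 h replicate 1 (0.029).

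Of the 4 pentose phosphate enzymes, *G6pdx*, the entry enzyme, rose by 0.35 ± 0.10 SE in WT and *Pgd*, of the next NADPH-making step, by 0.36 ± 0.11 SE (log2, edgeR adjusted p = 0.00802 and 0.0131). Without WT 4 h replicate 1 neither passed (edgeR adjusted p = 0.0657 and 0.0522). In KO their changes were 0.15 ± 0.10 SE and 0.13 ± 0.11 SE and were not called. *Taldo1* and *Tkt*, of the non-oxidative branch, were not called in either genotype. Under alternatives, *Tkt* was called as raised in WT with library totals (0.26 on the log2 scale, edgeR adjusted p = 0.0465) and *Taldo1* as lowered in KO with only the compared groups in the fit (-0.18, edgeR adjusted p = 0.0399). For none of the 4 did the difference of the changes pass, with edgeR adjusted p values from 0.306 to 0.861.

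**Figure D3:**
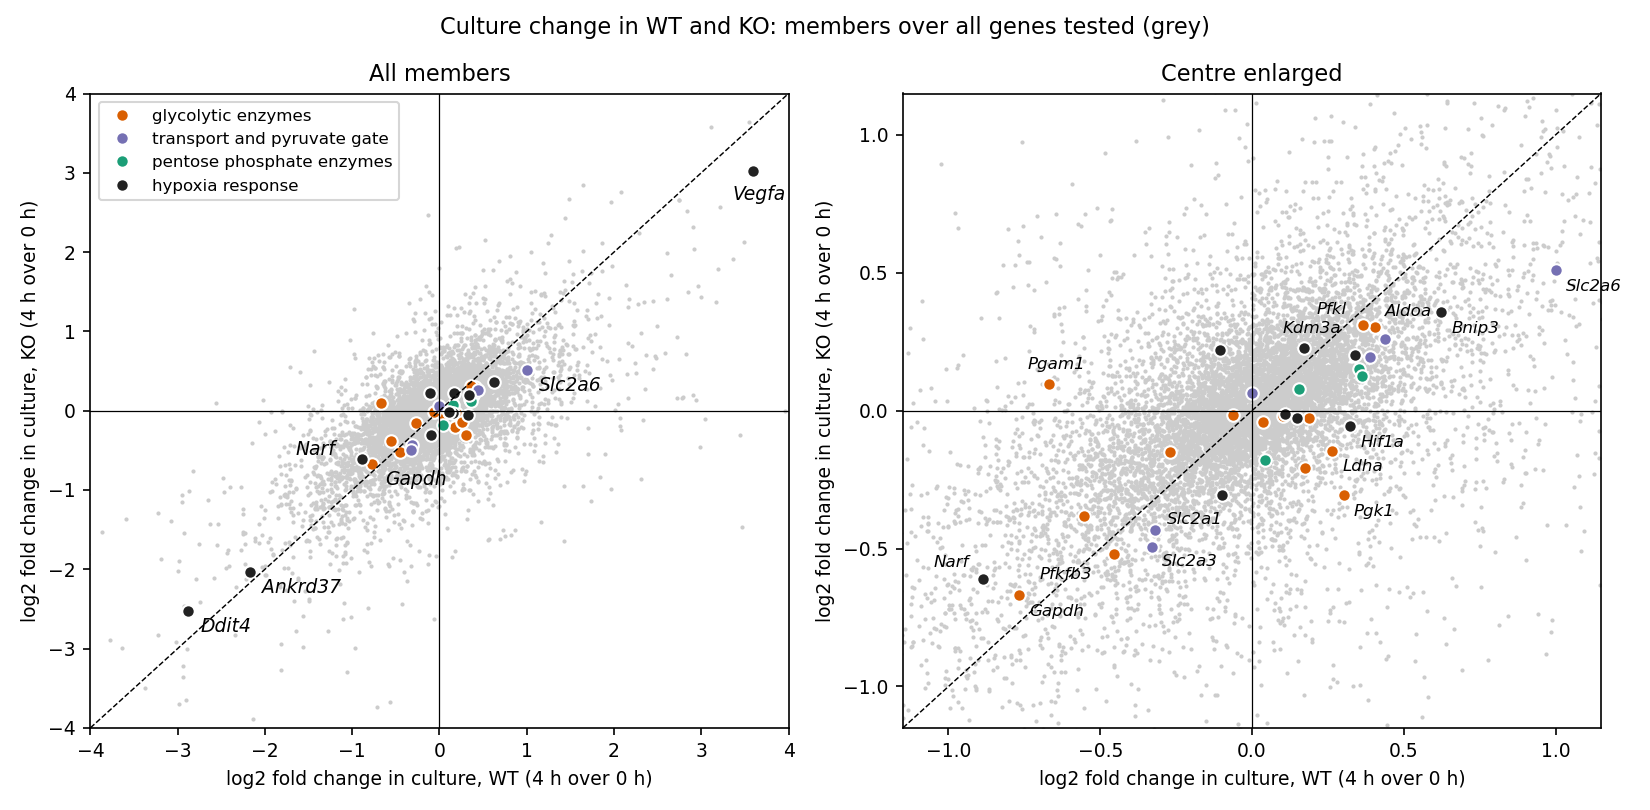
Log2 fold change in culture (4 h over 0 h) in WT on the x axis and in KO on the y axis for the 36 members, over the genes tested in grey (those beyond the axes are not drawn), with the centre enlarged at the right. The dashed line marks equal change; *Ddit4*, *Ankrd37* and *Vegfa* lie near it at the far ends, and *Ldha* (0.26 in WT, -0.14 in KO) and *Hif1a* (0.32 in WT, -0.06 in KO) lie below it.

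The comparison of genotypes at 4 h asked which members differed with the receptor once the cells had been cultured. Of 36 members, 3 were called (8.33%), each higher in WT, where 10.9% of all 11123 genes tested were called (5.22% as higher in WT, 5.67% as higher in KO). The share of members was close to that of all genes. They were *Slc2a6*, *Hif1a* and *Ldha*, of which *Ldha* was not called without WT 4 h replicate 1. The median log2 difference over members was 0.14, beside 0.00 over all genes tested. Groups did not overlap for 16 members (44.4%), 13 of them higher in WT, beside 27.9% of all genes tested. At 4 h, 5 of 9 B cell markers were lower in WT and 3 of 30 proliferation genes were lower in WT; their part in these differences was not tested.

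*Slc2a6* showed the largest called difference, 1.58-fold higher in WT (1.37 to 1.82; log2 difference 0.66 ± 0.10 SE, edgeR adjusted p = 0.000352). At 0 h its difference was 0.16 ± 0.12 SE and was not called (edgeR adjusted p = 0.631).

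*Hif1a*, which encodes the oxygen-regulated subunit of HIF-1, was at 145.1, 149.4 and 145.1 CPM in WT and 122.1, 121.6 and 113.1 CPM in KO at 4 h. The groups did not overlap. The log2 difference was 0.30 ± 0.06 SE, or 1.23-fold (edgeR adjusted p = 0.00388). At 0 h it was at 116.6, 113.5 and 120.9 CPM in WT and 119.8, 122.2 and 129.1 CPM in KO, which overlapped.

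*Ldha* was at 149.9, 128.1 and 142.2 CPM in WT and 117.4, 109.6 and 127.1 CPM in KO at 4 h. WT replicate 2 and KO replicate 3 lay close, at 128.1 and 127.1 CPM, with no overlap. The log2 difference was 0.25 ± 0.07 SE, or 1.19-fold (edgeR adjusted p = 0.0422). This call was lost with DESeq2 (adjusted p = 0.052), with library totals (edgeR adjusted p = 0.060), and without WT 4 h replicates 1 or 3 or KO 4 h replicates 1 or 2 (edgeR adjusted p = 0.115 to 0.197).

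*G6pdx* (log2 difference 0.33 ± 0.10 SE, edgeR adjusted p = 0.054) and *Pfkp* (-0.25 ± 0.08 SE, edgeR adjusted p = 0.0526) missed the threshold narrowly. *G6pdx* passed without KO 4 h replicate 1 (edgeR adjusted p = 0.0491) and *Pgd* without KO 4 h replicate 2 (0.0128). With all libraries kept, *G6pdx* passed with the 0 h groups also in the fit (edgeR adjusted p = 0.0371) and with a replicate block (0.0277). *Taldo1*, *Pgd* and *Egln1* lay at 0.22 ± 0.07 SE, 0.29 ± 0.11 SE and 0.28 ± 0.10 SE, with edgeR adjusted p values of 0.0787, 0.0994 and 0.0901. Without WT 4 h replicate 2, which had the fewest counts of all libraries, 8 members were called, 7 higher in WT and 1 lower, beside 12.1% of all genes. *Aldoa*, *G6pdx*, *Taldo1*, *Egln1* and *Pfkp* were the additional calls.

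**Figure D4:**
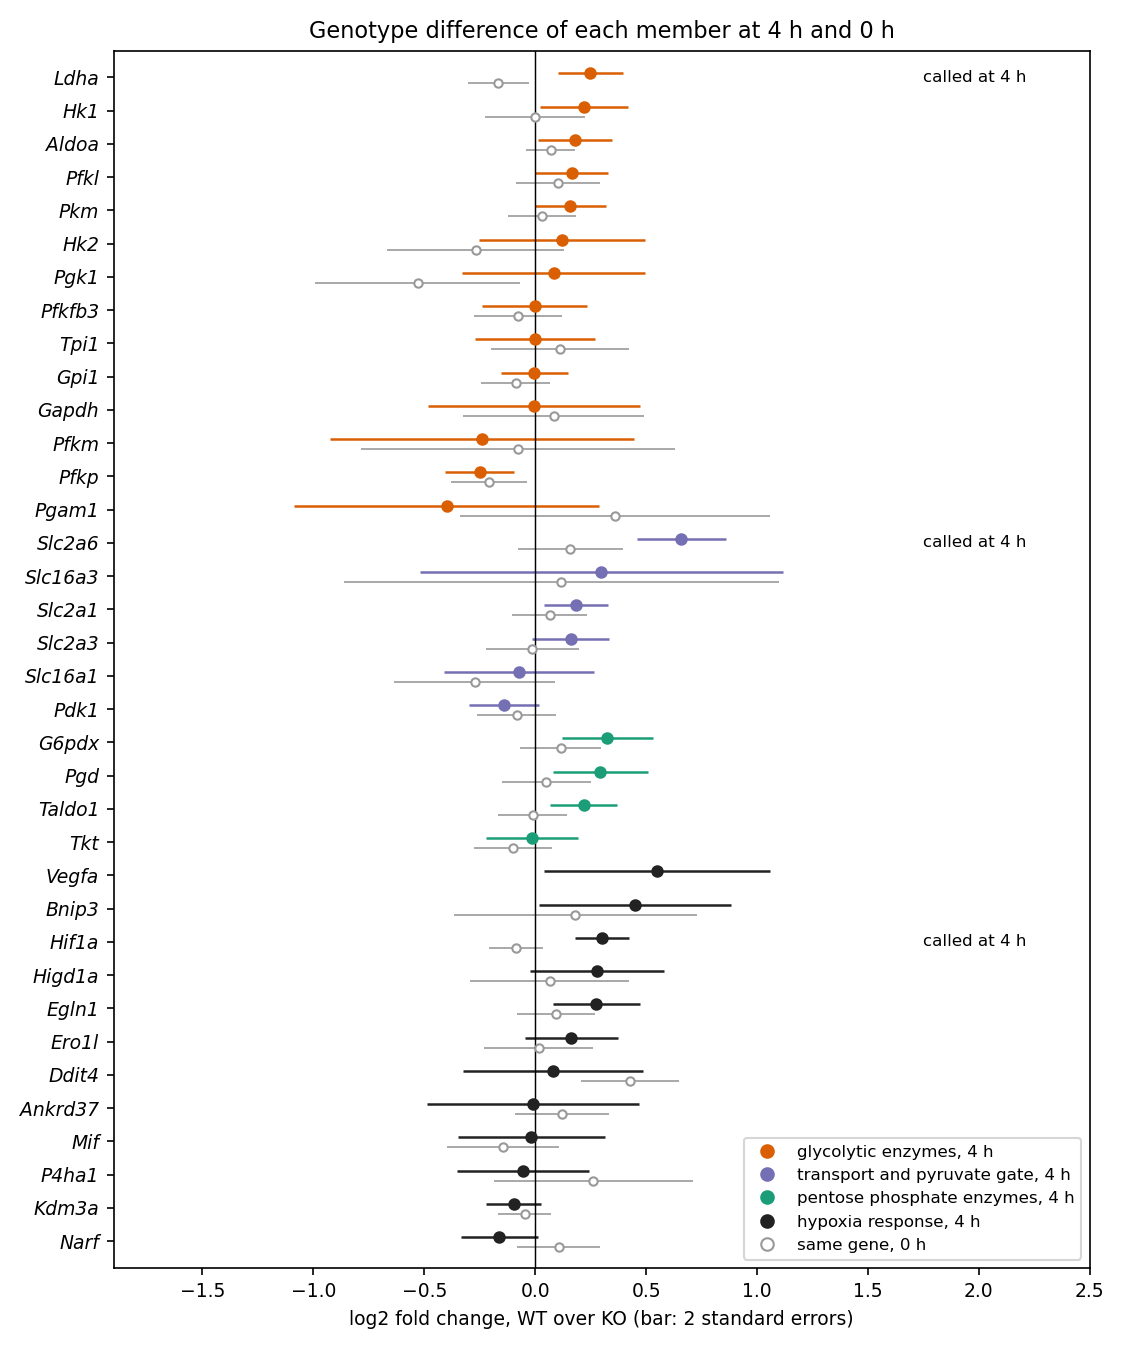
Log2 fold change of WT over KO for each member at 4 h (filled, coloured by group of genes) and at 0 h (open grey), with bars of 2 standard errors. Most bars at 0 h cross 0, and the 3 members called at 4 h are *Ldha*, *Slc2a6* and *Hif1a*.

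Whether culture acted differently in the genotypes was tested as the change in WT minus the change in KO, which uses the same 12 libraries as the comparisons above. Of 36 members, 2 were called (5.56%), both with the change higher in WT, beside 6.39% of all genes tested, 2.45% of them in this direction. For *Hif1a* the difference of changes was 0.38 ± 0.08 SE on the log2 scale (edgeR adjusted p = 0.00621), from a rise of 0.32 ± 0.06 SE in WT and a change of -0.06 ± 0.06 SE in KO. For *Ldha* it was 0.41 ± 0.11 SE (edgeR adjusted p = 0.0218). *Ldha* was at 108.0, 120.3 and 121.8 CPM in WT and 133.8, 120.4 and 136.6 CPM in KO at 0 h, which overlapped through WT replicate 3 and KO replicate 2. The change was 0.26 ± 0.07 SE in WT (edgeR adjusted p = 0.00963) and -0.14 ± 0.08 SE in KO (edgeR adjusted p = 0.184). The *Ldha* call was lost without WT 0 h replicate 1, KO 0 h replicates 1 or 3, WT 4 h replicates 1 or 3, or KO 4 h replicates 1 or 2 (edgeR adjusted p = 0.0507 to 0.0768), while *Hif1a* kept its call in each alternative run. *Hif1a* shares 5.74% of its exonic words with other genes and *Ldha* 9.26%.

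**Figure D5:**
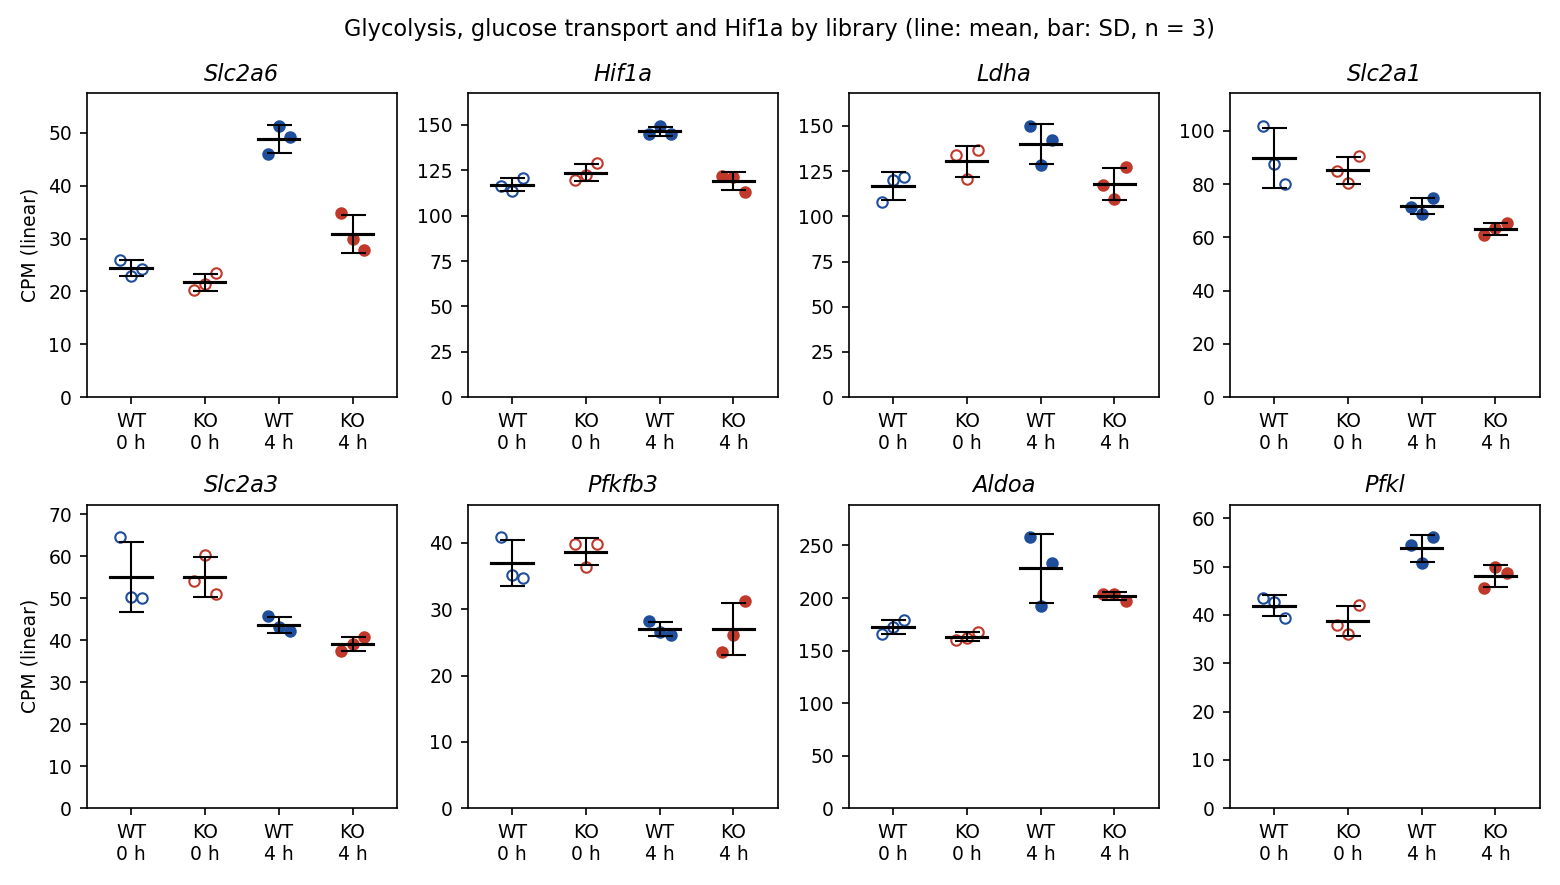
Level in CPM on a linear axis of 8 members in the 12 libraries (open, 0 h; filled, 4 h; blue, WT; red, KO; line and bar, mean and SD of 3). *Slc2a6* and *Hif1a* in WT at 4 h lie above all other libraries, *Slc2a1*, *Slc2a3* and *Pfkfb3* are lower at 4 h in both genotypes, and *Aldoa* and *Pfkl* are higher.

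Neighbouring genes of the pathways that are no members were counted from longer lists. Beside these counts, 10.9% of all genes tested were called for genotype at 4 h (5.22% as higher in WT, 5.67% as higher in KO). At 0 h the share was 0.987%. Of 15 other glycolysis genes tested at 4 h, 1 was higher in WT and 1 lower: *Adpgk*, an ADP-dependent glucokinase, at 0.29 ± 0.08 SE, and *Pfkfb2*, a sister of *Pfkfb3*, at -0.34 ± 0.08 SE (log2, edgeR adjusted p = 0.0309 and 0.016). Of 10 genes of pyruvate entry to mitochondria, 0 were called by edgeR for genotype at either time, and 3 had an unadjusted p under 0.05 at 4 h and 0 at 0 h. Of 26 other hypoxia pathway genes, 5 were higher in WT at 4 h and 1 was lower. The histone demethylase gene *Kdm6b* (0.86 ± 0.07 SE, edgeR adjusted p = 6.68e-07) and the MYC antagonist gene *Mxi1* (0.58 ± 0.09 SE, edgeR adjusted p = 0.000483) had the smallest p values. *Bhlhe40*, a HIF-induced repressor, *Egln2*, a HIF prolyl hydroxylase, and *Zfp395* were higher by 0.44 ± 0.11 SE, 0.27 ± 0.08 SE and 0.28 ± 0.08 SE (edgeR adjusted p = 0.016, 0.0318 and 0.046). *Fam162a*, a mitochondrial hypoxia target, was lower in WT, at -0.40 ± 0.11 SE (edgeR adjusted p = 0.0274). Of 19 regulators of glucose sensing, MYC and mTORC1, *Mlxip*, which encodes the glucose sensor MondoA, was higher by 0.34 ± 0.06 SE and *Sesn1*, a sestrin that restrains mTORC1, was lower, at -0.27 ± 0.05 SE (edgeR adjusted p = 0.00192 and 0.00424). Of 8 other pentose phosphate genes, 0 were called at 4 h in edgeR and 1 had an unadjusted p under 0.05.

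*Kdm6b* was at 182.2 to 209.0 CPM in WT at 4 h, against 100.5 to 115.0 in KO, 97.3 to 113.0 in WT at 0 h and 96.9 to 105.3 in KO at 0 h. WT at 4 h alone stood apart, and the difference of the changes was 0.76 ± 0.10 SE (edgeR adjusted p = 3.67e-05). *Adpgk* (0.44 ± 0.12 SE), the ribokinase gene *Rbks* (0.86 ± 0.25 SE) and *Mlxip* (0.37 ± 0.09 SE), also changed more in WT, with edgeR adjusted p values of 0.0264, 0.0426 and 0.0127. Each of these was the only such call in its list, of 17, 8 and 19 genes tested, and *Kdm6b* the only one of 26. Of all genes tested, 6.39% were called for this difference, 2.45% in this direction. At 0 h, 1 of 25 other hypoxia genes was called, *Cited2*, an inhibitor of HIF-1 that competes for p300, higher in WT by 0.46 ± 0.10 SE (edgeR adjusted p = 0.0331); it was named after its value was seen.

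The B cell markers lower in WT at 4 h were *Cd22* (-1.03 ± 0.06 SE), *Cr2* (-0.91 ± 0.10 SE), *Fcer2a*, which encodes the CD23 of the sort (-0.90 ± 0.06 SE), *Ms4a1* (-0.59 ± 0.08 SE) and *Pax5* (-0.43 ± 0.06 SE), and the change of each in culture also differed by genotype in edgeR. Of 10 macrophage, monocyte and neutrophil markers tested at 4 h, 1 was called, *Mpeg1*, higher in WT (1.08 ± 0.17 SE). The median log2 difference of these 10 was -0.04. Of 7 T and NK cell markers, 1 was called, the kinase gene *Lck*, lower in WT (-0.62 ± 0.15 SE). The median of these 7 was 0.72, in the other direction. Of 5 plasma cell markers, 1 was called, the regulator gene *Irf4*, higher in WT (0.23 ± 0.06 SE). Of 30 proliferation genes, 3 were called, all lower in WT: *Mki67* (-0.83 ± 0.17 SE), *Ccna2* (-0.80 ± 0.19 SE) and *Nusap1* (-0.90 ± 0.24 SE). The change in culture was higher in WT for *Mpeg1*, *Cenpe*, *Mcm3* and *Mcm4* and lower for the plasma cell marker *Sdc1*, with log2 differences from -1.20 to 1.68.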

How the data were processed

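RNA from 12 libraries of sorted follicular B cells was sequenced, 3 per genotype and time. Per the labels, the authors aligned reads with STAR to mm10, counted them with HTSeq and tested them with DESeq2; versions, annotation and strand setting are not given in the sources used here. The deposited values are raw counts per gene, in 1 table per time, and the lowest row sum was 10 in each. 0 columns were unmapped. Groups came from the labelled genotype and hours.

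Counts were tested with edgeR 4.0.16 in R 4.3.3 (TMM scaling, filterByExpr, quasi-likelihood test, Benjamini-Hochberg adjustment over all genes tested, threshold 0.05). Genotype was tested within each table, and culture and its difference between genotypes on genes in both tables with all 4 groups fitted. An SE is that of the fitted log2 value. Levels are CPM on TMM-scaled totals; levels per kb used GENCODE exon lengths (GRCm38, the mm10 build), and words of 50 bases were matched to all annotated exons. The alternatives were DESeq2 1.42.0, other scalings, no filter, no Rn45s row, other groups in the fit, a replicate block and leaving out each library. The test was checked on simulated counts. With 3 libraries against 3, an exact permutation test of a single gene cannot go below 0.1. A p-value weighs a difference against the spread between libraries of the same group, estimated over all groups in the fit. The numbers of reads limit precision for low genes.

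Values in every library are given for members called for genotype or for the difference of changes, and for the 5 called members with the largest culture change in each genotype; pathway genes outside the list have values where called at 4 h or for the difference, at most 6 per list. Members and lists were chosen with earlier results of these data known.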

Additional observations from a re-analysis of the deposited data

Results flagged for a closer look

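For 2 members the change in culture differed between genotypes by the test of the difference itself. For *Hif1a* the change in WT minus that in KO was 0.38 on the log2 scale (SE 0.08, edgeR adjusted p = 0.00621), and it passed the test in every alternative run. For *Ldha* it was 0.41 (SE 0.11, edgeR adjusted p = 0.0218), and it did not pass when 1 of 7 of the 12 libraries was left out (WT 0 h replicate 1, KO 0 h replicates 1 and 3, WT 4 h replicates 1 and 3, KO 4 h replicates 1 and 2; edgeR adjusted p = 0.0507 to 0.0768).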

How the results depend on the processing

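No result reversed under any alternative run. Leaving out single libraries gave 0 to 1 called members for genotype at 0 h (*Ddit4*, without KO 0 h replicate 2), 2 to 8 for genotype at 4 h, 14 to 17 for culture in WT, 9 to 12 for culture in KO and 1 to 2 for the difference of changes. The share of all genes called moved between these runs as well. For genotype at 4 h it was 9.61% without WT 4 h replicate 1 and 12.1% without WT 4 h replicate 2. Counting only the 20 members with under 5% shared words, an alternative chosen after seeing the data, left 1 call for genotype at 4 h (*Slc2a6*), 11 for culture in WT, 9 for culture in KO and 0 for the difference of changes. Of all genes tested, 10.9% were called for genotype at 4 h, 33.1% for culture in WT, 23.3% for culture in KO and 6.39% for the difference. The counts without *Vegfa* were also chosen after seeing the data, and 17, 11 and 2 calls were left in WT culture, KO culture and their difference. With library totals, the summed level of glycolytic enzymes moved by more than its SD in WT at 0 h, from 697.4 to 664.8 CPM. It did so in KO at 4 h as well, from 725.5 to 756.5 CPM. In WT at 4 h and KO at 0 h it moved by less than the SD. Deviations of same-numbered libraries correlated at -0.113 to 0.056 between WT and KO of 1 time. Between 0 h and 4 h they correlated at 0.098 to 0.132 in WT and at -0.038, 0.141 and 0.153 in KO. Differently numbered libraries were not compared, so these values do not settle whether the numbers mark pairs. The main fit took no pairs, so it treated libraries of 0 h and 4 h as independent. For genotype at 0 h and 4 h, culture in WT and KO and their difference, a replicate block gave 0, 4, 18, 12 and 2 called members. It added *G6pdx* at 4 h. In the same order, DESeq2 gave 0, 2, 17, 12 and 2. The shares of all genes called with the block and with DESeq2 are not given here. Low counts limit *Vegfa*, *Slc16a3*, *Pgam1* and *Pfkm*, whose SE reached 0.70 on the log2 scale. The cause of these shifts was not tested.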
